A study of Mus musculus with 2 samples.

Results

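The 37 genes described here are expressed in G2 and mitosis, the last phases of the cell cycle, and were chosen by name. All 37 symbols were found among the 31053 genes of the deposited matrices. Droplet 3' single-cell RNA sequencing measured them in mouse bone marrow cells sorted as Lin- Kit+, that is, progenitors without markers of mature lineages that carry the Kit receptor. One library came from mice with a GATA-1 mutation knocked in, named 2RA in the labels (KI), and 1 library from wild-type mice (WT), to set cell populations and gene regulation side by side. The GATA-1 protein switches genes on and off as red cells, megakaryocytes, mast cells and eosinophils form. What 2RA stands for, the age of the mice and the number of animals behind each library are not given in the sources used here. The transcript level of a knocked-in gene need not change, so the counts do not check the genotype labels.

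Each genotype had 1 library, so nothing could be tested across samples, and each difference below is between these 2 libraries. After filtering, the KI library held 5492 cells with a median of 5279 unique molecular identifiers (UMIs, tags that each mark 1 captured RNA molecule). The WT library held 5490 cells with a median of 9623.5 UMIs. The libraries shared 10 cell barcodes, 5 of them among the kept cells. Clusters were called erythroid-like, megakaryocyte-like and so on from marker genes, and the bare class name is used from here on. Levels are given as CPM, the UMI counts of a class and library scaled to a common total. The erythroid class held 3146 KI and 2309 WT cells, and all 13 erythroid markers were detected in it in both libraries, at a summed level of 5299 CPM in KI and 5907 CPM in WT cells. The members were left out of the clustering. Within this class the libraries lay mostly in clusters of their own, clusters 2, 3 and 6 for KI and clusters 4, 8 and 9 for WT. Cluster 3, with 1017 KI cells, was the least erythroid of these by its markers. There 53.8% of the 13 lay above the middle of their range over clusters, and 9 were detected in at least 5% of cells. In cluster 9, with 579 WT cells, these values were 76.9% and 12. The part of cluster 3 in the shares below was not tested.

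A cell that has copied its DNA builds up cyclins A and B, which switch on the kinase CDK1 and drive entry into mitosis. Aurora and Polo-like kinases, kinesins and spindle proteins then set up the spindle, and kinetochore and checkpoint proteins hold the cell until every chromosome is attached. The anaphase promoting complex with its activator CDC20 then marks cyclin B for destruction, the chromosomes part, and cytokinesis separates the daughter cells. Most of these genes are held off early in the cycle by the DREAM complex. The MuvB complex with B-MYB and FOXM1 switches them on late. Their known promoter elements are a short one, the cell-cycle homology region (CHR), and CCAAT boxes bound by NF-Y. Red cell progenitors divide several times as they mature, so that cycling and maturation run side by side in this lineage.

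The promoters of the members shared these letters. RefSeq promoters (assembly GRCm38.p6), 250 bases before to 50 bases after the start site, were matched for 31 of the 37 members. The CHR motifs TTTGAA or TTCGAA stood on either strand in 26 of the 31, or 83.9%, against 19.4% of all 27025 promoters of the same length. CCAAT stood in 24 members (77.4%), against 37.9% of all promoters, and 22 members (71.0%) held both a CHR motif and CCAAT, against 7.70%. At least 2 CCAAT boxes stood in 17 members (54.8%), against 12.2% of all. These are matches of letters, not sites shown to be bound. Ccna2, Aurkb, Incenp, Kif20a, Esco2 and Tpx2 had no match in the table. The promoters of 5 members are printed here, 5' to 3' on the gene's own strand, because these genes carry the account below: Cdk1, Ccnb1 and Plk1 had ratios below 0 in sums over every class measured, Ccnb2 is the partner cyclin, and the erythroid ratio of Ube2c changed its sign with the processing. Capitals mark the CHR motifs and CCAAT on either strand. Cdk1 lies at chr10:69352863-69353162 (minus strand), Ccnb1 at chr13:100786437-100786736 (minus), Ccnb2 at chr9:70421505-70421804 (minus), Plk1 at chr7:122159185-122159484 (plus) and Ube2c at chr2:164769679-164769978 (plus).
Cdk1: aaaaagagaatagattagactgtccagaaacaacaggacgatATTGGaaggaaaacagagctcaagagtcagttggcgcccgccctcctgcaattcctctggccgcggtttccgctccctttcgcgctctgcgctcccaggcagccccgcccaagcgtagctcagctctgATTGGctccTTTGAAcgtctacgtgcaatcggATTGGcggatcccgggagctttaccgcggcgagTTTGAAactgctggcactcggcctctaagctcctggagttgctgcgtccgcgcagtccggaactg
Ccnb1: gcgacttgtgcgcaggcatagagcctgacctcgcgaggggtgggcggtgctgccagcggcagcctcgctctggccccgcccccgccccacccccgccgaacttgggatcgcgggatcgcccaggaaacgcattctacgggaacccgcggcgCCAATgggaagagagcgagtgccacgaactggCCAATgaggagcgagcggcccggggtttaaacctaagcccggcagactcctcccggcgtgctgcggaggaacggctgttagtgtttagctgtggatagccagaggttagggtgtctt
Ccnb2: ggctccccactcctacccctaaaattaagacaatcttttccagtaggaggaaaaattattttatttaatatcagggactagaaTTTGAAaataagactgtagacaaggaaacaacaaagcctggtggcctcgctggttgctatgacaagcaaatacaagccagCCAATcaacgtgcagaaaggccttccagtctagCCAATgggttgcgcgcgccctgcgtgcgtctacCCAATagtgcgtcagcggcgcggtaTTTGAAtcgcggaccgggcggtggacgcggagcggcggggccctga
Plk1: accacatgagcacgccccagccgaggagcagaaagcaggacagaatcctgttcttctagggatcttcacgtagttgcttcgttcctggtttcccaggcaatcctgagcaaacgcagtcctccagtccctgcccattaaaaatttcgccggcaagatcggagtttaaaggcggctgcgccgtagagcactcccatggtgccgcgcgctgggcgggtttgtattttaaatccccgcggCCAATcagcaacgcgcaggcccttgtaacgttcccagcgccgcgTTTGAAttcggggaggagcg
Ube2c: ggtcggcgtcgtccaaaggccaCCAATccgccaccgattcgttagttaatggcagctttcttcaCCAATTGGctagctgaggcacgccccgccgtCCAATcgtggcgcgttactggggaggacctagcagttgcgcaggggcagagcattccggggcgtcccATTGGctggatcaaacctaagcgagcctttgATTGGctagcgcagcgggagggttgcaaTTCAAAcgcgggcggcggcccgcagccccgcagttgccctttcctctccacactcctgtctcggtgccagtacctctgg
Ccnb1 was the only 1 of the 5 with no CHR motif in its window, and it held 2 CCAAT boxes. Ube2c held 6 CCAAT boxes, 2 of which overlap each other on opposite strands, and 1 TTTGAA. Cdk1 and Ccnb2 each held 2 TTTGAA and 3 CCAAT, and Plk1 held 1 of each.

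G2/M cells were less frequent in the KI library than in WT in erythroid, megakaryocyte and stem cells, but these differences moved with the total UMIs of the cells. In erythroid cells KI was lower among the cells with fewest UMIs and not among the others. Weighted to the same mix of totals, the erythroid shares lay close together. Where cells under 4000 UMIs were left out, the stem difference was gone and the megakaryocyte interval included no difference. Each cell was thinned to 2000 UMIs, and a cell with at least 5 UMIs over the 37 members was called a G2/M cell. The name stands for this limit only, since many called cells also passed an S-phase limit given below. In erythroid cells 33.0% (31.3 to 34.7) of 2973 KI cells and 47.8% (45.7 to 49.9) of 2256 WT cells were G2/M cells. The log2 ratio of these shares, KI over WT, was -0.53 (-0.63 to -0.44). Without thinning, with 0.25% of a cell's own UMIs as the limit, the shares were 30.99% in KI and 48.3% in WT. The brackets hold 95% intervals, exact binomial ones for shares, and here and below they cover counting error only. The left-out cells under 2000 UMIs made up 5.50% of KI and 2.30% of WT erythroid cells.

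The median total of the erythroid cells before thinning was 7024 UMIs in KI and 15167.5 UMIs in WT, and within each library G2/M cells were the larger cells. KI G2/M cells had a median of 16755 UMIs and the other KI erythroid cells 4014.5, and WT G2/M cells had 22363.5 and the other WT erythroid cells 7025. A comparison at matched totals was therefore added after these values were seen. Among erythroid cells with 2000 to 3999 UMIs, 3.03% of 1023 KI and 8.70% of 299 WT cells were G2/M cells (log2 ratio -1.52, -2.25 to -0.79), a wider gap than over all erythroid cells. At 4000 to 7999 UMIs the order turned, with 19.6% of 555 KI and 13.5% of 429 WT cells (log2 ratio 0.54, 0.12 to 0.96). At 8000 to 15999 UMIs the shares were 44.5% of 670 KI and 40.7% of 437 WT cells (0.13, -0.08 to 0.33). Above that they were 74.9% of 725 KI and 74.8% of 1091 WT cells. Cells of like totals were not always of like maturity. The mean UMIs of the maturing erythroid genes used for stage below were 4.40 in KI and 3.32 in WT at 4000 to 7999 UMIs. They were 5.72 in KI and 4.77 in WT at 8000 to 15999 UMIs. In the lowest range they were 2.49 in KI and 2.57 in WT, and in the highest 6.64 in KI and 7.10 in WT. The part of maturity in the turned order was not tested. Weighted to the WT mix of totals, the KI share was 49.0%, beside 47.8% in WT (log2 ratio 0.035). The total of a cell reflects both its own RNA and the depth of its library, and with 1 library of each these cannot be told apart. The smaller share of G2/M cells among KI erythroid cells therefore stands beside a larger share of cells with few UMIs, and the KI share was lower in the lowest range of totals, which held the most KI cells, and not in the upper 3. The mean of member UMIs per thinned cell ran the same way, at 0.986 in KI and 1.65 in WT in the lowest range, and at 3.41 in KI and 2.42 in WT, 5.15 in KI and 5.04 in WT, and 8.42 in KI and 7.56 in WT in the ranges above.

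**Figure D1:**
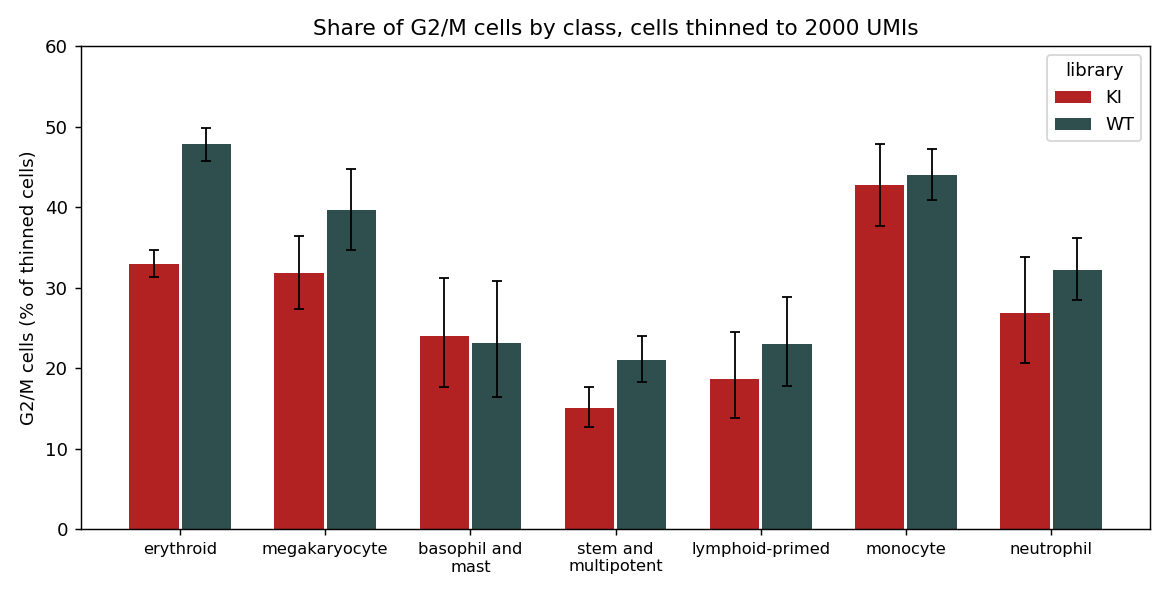
Share of G2/M cells (y axis, percent of thinned cells) in 7 classes (x axis), with KI to the left of WT in each pair and bars of exact 95% binomial intervals, which cover counting error only. The widest gap is in erythroid cells, 33.0% in KI and 47.8% in WT, and monocyte cells lie close together, at 42.7% in KI and 44.0% in WT.

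Outside the erythroid class the shares were lower in KI for megakaryocyte and stem cells and within counting error for the others. Megakaryocyte cells had 31.8% G2/M cells in KI and 39.6% in WT (log2 ratio -0.32, -0.59 to -0.05). Stem and multipotent cells had 15.05% in KI and 21.1% in WT (-0.48, -0.79 to -0.18), the lowest share of the 7 classes in both libraries. The intervals of these shares overlap those of lymphoid-primed cells in both libraries and that of basophil and mast cells in WT. Lymphoid-primed cells had 18.7% in KI and 23.0% in WT (-0.30, -0.82 to 0.23), and neutrophil cells 26.9% in KI and 32.2% in WT (-0.26, -0.64 to 0.12). Basophil and mast cells had 23.95% in KI and 23.1% in WT (0.05, -0.53 to 0.64), and monocyte cells 42.7% in KI and 44.0% in WT (-0.04, -0.24 to 0.15). The intervals of these last 4 classes include no difference and allow sizable ones. In KI, monocyte cells had the highest share and erythroid and megakaryocyte cells came next with intervals that overlap each other, and in WT, erythroid and monocyte cells had the highest shares with intervals that overlap. Median totals were lower in KI in each of these classes too, at 5116 KI and 6574 WT UMIs in megakaryocyte and 3957 KI and 5488 WT UMIs in stem cells. These 2 classes could not be weighted to like totals, since too few KI cells had high totals there. With cells thinned to 4000 UMIs, which leaves out the smaller cells, the stem shares were 25.6% of 403 KI and 25.9% of 603 WT cells (-0.018), so the stem difference was gone, and the megakaryocyte ratio was -0.17 (-0.45 to 0.11). Over all settings the megakaryocyte ratio ran from -0.52 to -0.17. Monocyte cells weighted to the WT mix of totals had 48.4% in KI, beside 44.0% in WT.

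Background RNA was not estimated, and the cells that bear on it were few. A B-cell cluster, which should hold resting cells, had 32 KI cells and 1 WT cell. None of its 6 KI cells with 2000 UMIs was a G2/M cell, which allows a share of up to 45.9%. Its summed member level was 231 CPM in KI, against 3160 CPM in KI erythroid cells. Their median total was 2352 UMIs, so little can be read from these 6 cells.

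Another list of genes gave the same order in erythroid cells. A list of 55 other G2 and mitosis genes, with at least 5 UMIs in a thinned cell, called 30.8% (29.1 to 32.5) of KI and 43.3% (41.2 to 45.4) of WT erythroid cells. In cells called this way the members summed to 9.11 ± 6.31 UMIs in KI and 8.64 ± 4.98 UMIs in WT (SD over cells, which are not replicates). In the other erythroid cells they averaged 2.00 UMIs in KI and 2.77 UMIs in WT. Both lists thus called fewer KI than WT erythroid cells. S-phase cells, with at least 10 UMIs over 44 S-phase genes, made up 26.5% of KI and 36.4% of WT erythroid cells. They made up 35.0% of KI and 31.8% of WT megakaryocyte cells, and 42.7% of KI and 31.7% of WT monocyte cells. Of the erythroid G2/M cells, 389 of 981 in KI and 507 of 1078 in WT were S-phase cells as well. A G2/M cell as called here can therefore still be in S phase.

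The clusters of the erythroid class ran from few to many G2/M cells in each library. They were made without the members and the cell-cycle lists. Genes in no list that follow the members, such as Cenpn, could still enter the clustering. In KI the share was 3.95% in cluster 3, 18.3% in cluster 6 and 62.6% in cluster 2. In WT it was 9.12% in cluster 9, 43.4% in cluster 8 and 74.3% in cluster 4. Immediate early genes such as Egr1, which answer stress and cell handling, were among the 10 leading genes of clusters 3 and 9. Median totals ran the same way, at 2824, 5540 and 17157 UMIs in these KI clusters and 4161, 13086 and 23559.5 UMIs in these WT clusters. The clusters of the libraries do not match one to one, so these values are given for each library by itself.

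The G2/M share was larger in more mature erythroid cells in both libraries. Stage was cut into 3 ranges by the UMIs of 22 maturing erythroid genes in a thinned cell, with up to 3 UMIs as the low, 4 to 5 as the middle and at least 6 as the high stage. These are ranges of a score, not cell types, and 46.1% of KI and 44.5% of WT cells lay within 1 UMI of a limit. At the low stage 15.3% of 1326 KI and 23.6% of 760 WT cells were G2/M cells (log2 ratio -0.62, -0.88 to -0.36). At the middle stage the shares were 34.8% of 661 KI and 46.1% of 516 WT cells (-0.41, -0.61 to -0.20). At the high stage they were 55.6% of 986 KI and 67.4% of 980 WT cells (-0.28, -0.38 to -0.18). So the share was lower in KI at each stage. The log2 ratio lay closer to 0 at the later stages, while the difference in percentage points was -8.24, -11.3 and -11.9 from low to high. Split by single counts of maturing UMIs, KI had the lower share in all 10 ranges, with 8.05% in KI and 12% in WT at 0 maturing UMIs and 70.4% in KI and 80.4% in WT at 12 or more.

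Totals moved with stage and genotype here as well. Median UMIs were 3482.5 in KI and 5430 in WT at the low, 8471 in KI and 13999.5 in WT at the middle, and 15551 in KI and 21840 in WT at the high stage. Weighted to the WT mix of totals, the KI share was 25.7% at the low stage, beside 23.6% in WT. It was 49.2% at the middle stage, beside 46.1% in WT, and 66.2% at the high stage, beside 67.4% in WT. The stage mix differed too, with 44.6% of KI and 33.7% of WT erythroid cells at the low stage and 33.2% of KI and 43.4% of WT cells at the high stage. With its own shares but the WT mix over the 10 ranges, the KI library would have had 38.1% G2/M cells. At like maturing scores KI cells also held more RNA of 10 immature genes, such as Gata2 and Myb, with a mean of 5.68 UMIs in KI and 3.76 in WT at the low stage and 1.78 in KI and 0.99 in WT at the high stage.

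**Figure D2:**
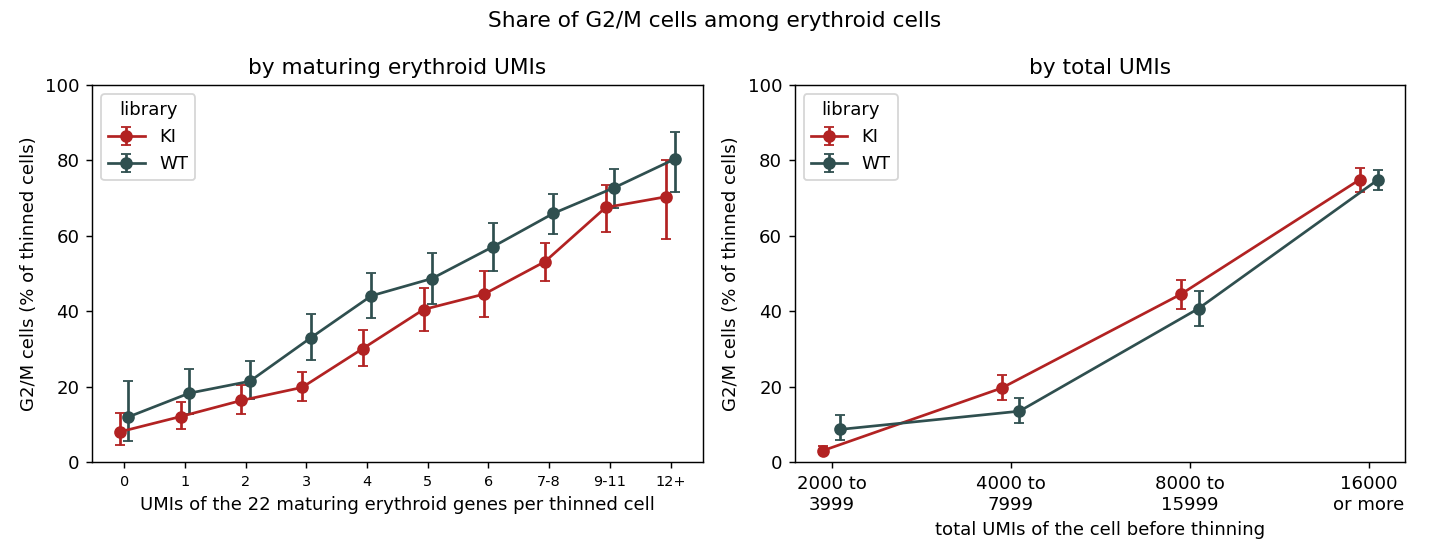
Share of G2/M cells among erythroid cells (y axis, percent of thinned cells) by UMIs of maturing genes (left, x axis) and by total UMIs before thinning (right, x axis), KI and WT as separate lines with exact 95% binomial intervals. On the left the KI line lies under the WT line in all 10 ranges, and on the right it lies under it at 2000 to 3999 UMIs, above it at 4000 to 7999 UMIs and close to it from there on.

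The amount of member RNA in single cells differed in its spread. At the low stage 42.8% of KI and 27.0% of WT cells had no member UMI, and 1.66% of KI and 1.58% of WT cells had 20 or more. At the high stage 10.2% of KI and 6.22% of WT cells had none, 29.6% of KI and 41.5% of WT cells had 5 to 9, and 2.64% of KI and 0.816% of WT cells had 20 or more. The KI high-stage cells were thus spread more widely, with more cells at both ends of the range. The upper end held 26 KI and 8 WT cells, and 10 of the 26 came from cluster 15, a KI cluster of few cells led by globin genes. Without it, 1.65% of KI and 0.817% of WT cells had 20 or more. The mean stood closer than the share at that stage, at 6.57 UMIs in KI and 6.99 UMIs in WT. With 10 UMIs as the limit in place of 5, the high-stage shares were 26.0% in KI and 25.9% in WT.

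**Figure D3:**
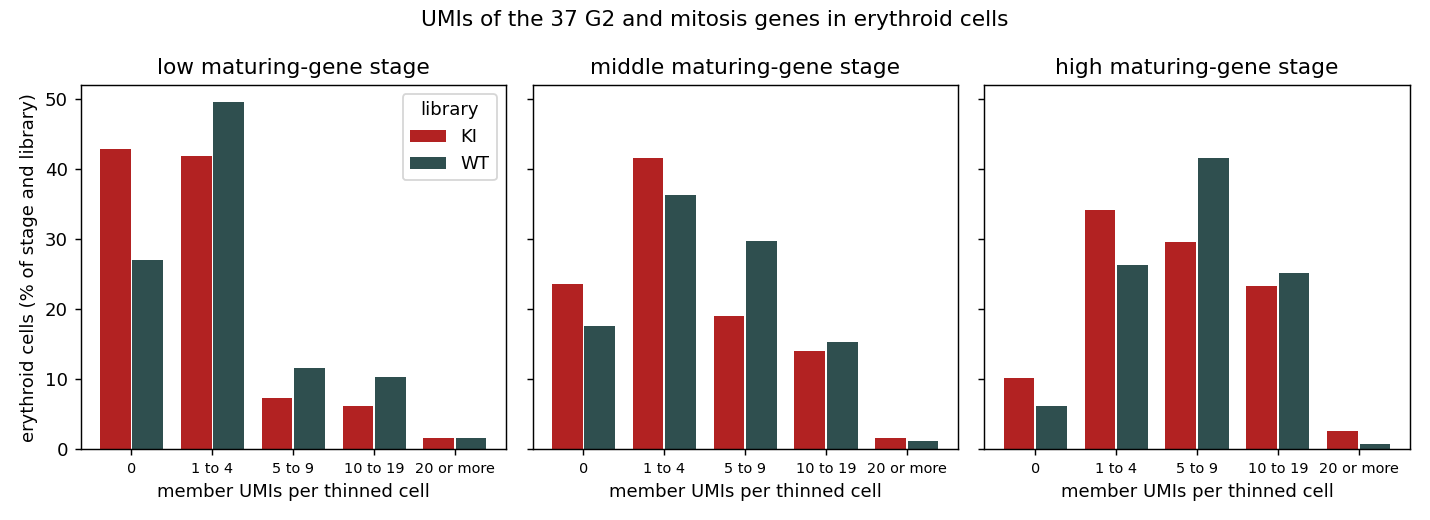
Distribution of member UMIs per erythroid cell after thinning to 2000 UMIs (x axis, ranges of UMIs) as percent of cells (y axis), 1 panel per stage, KI bars left of WT bars. At the low stage 42.8% of KI and 27.0% of WT cells have no member UMI, and at the high stage 2.64% of KI and 0.816% of WT cells have 20 or more.

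Summed over all erythroid cells, most members were slightly lower in KI. Of the 37 members, 34 were lower and 3 higher, with a median log2 ratio of -0.21. Over all genes the median was 0.05, and 58.7% were higher in KI. No member was past 1.5-fold, where 9.71% of all genes were higher and 4.32% lower in KI by that much. The interval of the ratio lay below 0 for 26 members and above 0 for 2, where 21% of all genes lay below and 33.3% above. The members summed to 3160 CPM in KI and 3574 CPM in WT cells. Such sums weigh a cell by its UMIs, and with every cell thinned to 2000 UMIs first the median was -0.36. At matched totals most members were no longer lower. With thinned cells and KI weighted to the WT mix of totals, 24 members were higher and 13 lower in KI, and the median was 0.073, beside 0.032 over all genes. No intervals and no share of all genes higher in KI were worked out for this setting. The margin over all genes therefore cannot be judged. The 13 lower members were Ccna2, Ccnb2, Aurka, Aurkb, Bub1, Kif11, Kif2c, Nusap1, Tacc3, Aspm, Racgap1, Kif20a and Cdc20. The ratios of single members in the next paragraphs are those of the plain sums, and they hold the difference in totals between the libraries. In a sum, fewer cells in G2/M and less RNA per such cell cannot be told apart. Levels below are in CPM of the class sum, and CPM are not set between genes, since capture at the 3' end differs from gene to gene.

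CDK1 and its cyclins were all lower in KI erythroid cells. Cdk1, the kinase that drives entry into mitosis, stood at 92.1 CPM in KI and 116 CPM in WT (log2 ratio -0.34, -0.41 to -0.27). Ccna2, cyclin A2, which acts from S phase on, stood at 83.0 CPM in KI and 115 CPM in WT (-0.47, -0.54 to -0.40), the third lowest ratio of the 37. Ccnb1 stood at 67.9 CPM in KI and 85.1 CPM in WT, and Ccnb2 at 89.7 CPM in KI and 111 CPM in WT. The 4 genes summed to 333 CPM in KI and 428 CPM in WT. At the low, middle and high stage Ccna2 had ratios of -0.51, -0.41 and -0.35, and Cdk1 had -0.52, -0.30 and -0.22. Both were thus below 0 at every stage, each with an interval below 0. At matched totals Ccna2 stood at -0.18 and Cdk1 at 0.060.

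The mitotic kinases and the chromosomal passenger complex were lower with 1 exception. Aurka, Aurora A of the spindle poles, stood at 29.4 CPM in KI and 41.7 CPM in WT (-0.50, -0.63 to -0.38). Plk1, Polo-like kinase 1, stood at 46.7 CPM in KI and 55.8 CPM in WT (-0.26, -0.36 to -0.16). Aurkb, Aurora B, the kinase of the passenger complex that corrects faulty attachments, stood at 51.4 CPM in KI and 70.2 CPM in WT (-0.45, -0.54 to -0.36). Its partners differed among themselves. Birc5, survivin, stood at 165 CPM in KI and 199 CPM in WT and Cdca8, borealin, at 142 CPM in KI and 161 CPM in WT. Incenp, the scaffold that binds the kinase, was level at 88.9 CPM in KI and 87.8 CPM in WT (0.02, -0.06 to 0.09). At matched totals Aurka stood at -0.28, Aurkb at -0.14, Plk1 at 0.12, Birc5 at 0.073 and Incenp at 0.34.

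Kinetochore and checkpoint genes were closer to level. Knl1, the kinetochore scaffold that recruits the BUB proteins, was slightly higher at 131 CPM in KI and 124 CPM in WT (0.08, 0.02 to 0.14), though its ratio was -0.074 with cells thinned first and 0.37 at matched totals. Cenpf stood at 106 CPM in KI and 107 CPM in WT, and Bub1b, the checkpoint protein BUBR1, at 38.7 CPM in KI and 41.3 CPM in WT (-0.09, -0.21 to 0.02). Cenpa, the histone H3 variant of centromeres, stood at 281 CPM in KI and 319 CPM in WT. Bub1, the checkpoint partner kinase of BUBR1, stood at 29.1 CPM in KI and 35.7 CPM in WT. The motor Cenpe stood at 66.7 CPM in KI and 72.0 CPM in WT. The 6 genes had a median ratio of -0.10.

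All 9 spindle genes were lower, 8 of them with intervals below 0, where 21% of all genes had such intervals. Tacc3, which holds spindle microtubules together, stood at 47.7 CPM in KI and 63.0 CPM in WT (-0.40, -0.50 to -0.30). Kif2c, a kinesin that takes microtubules apart at kinetochores, stood at 18.8 CPM in KI and 24.6 CPM in WT. Tpx2, which activates Aurora A, stood at 76.0 CPM in KI and 87.4 CPM in WT (-0.20, -0.28 to -0.12). Kif11, the motor that pushes the spindle poles apart, stood at 46.5 CPM in KI and 56.2 CPM in WT (-0.27, -0.37 to -0.17). Hmmr, a spindle pole protein, was the 1 whose interval reached 0, at 75.9 CPM in KI and 78.4 CPM in WT. Nusap1, Aspm, Ckap2 and Ckap2l were the other spindle members, at ratios between -0.36 for Ckap2 and -0.12 for Ckap2l. At matched totals Kif2c stood at -0.57, Tacc3 at -0.059 and Tpx2 at 0.31.

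Among the cytokinesis genes Kif20a, a kinesin of the central spindle, had the lowest ratio of all 37 members, at 23.6 CPM in KI and 34.3 CPM in WT (-0.54, -0.68 to -0.41). Kif23, the motor of centralspindlin, stood at 18.3 CPM in KI and 20.1 CPM in WT (-0.14, -0.30 to 0.02), with a ratio of 0.17 with cells thinned first, and its partner Racgap1 at 33.0 CPM in KI and 39.4 CPM in WT. Ect2, Anln and Kif20b had intervals that included 0. Of the genes of the anaphase promoting complex, Cdc20, its activator, stood at 89.1 CPM in KI and 111 CPM in WT (-0.32, -0.39 to -0.25). Ube2c, the enzyme that starts its ubiquitin chains, stood at 240 CPM in KI and 252 CPM in WT (-0.07, -0.11 to -0.02), but its ratio moved with the setting. It was -0.27 with cells thinned first, 0.019 with classes given cell by cell and 0.32 at matched totals. Cdca3, the third gene set with them, stood at 87.1 CPM in KI and 98.4 CPM in WT.

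The chromosome genes held the member with the highest ratio. Esco2, which acetylates cohesin in S phase to tie sister chromatids together, stood at 52.6 CPM in KI and 40.8 CPM in WT (0.37, 0.26 to 0.47), and its ratio was above 0 at all 3 stages. Thinned first, the ratio was 0.14, and at the low stage the order turned, with 40.0 UMIs per 1000 KI and 42.1 UMIs per 1000 WT cells. At matched totals it was 0.68. Mki67, the Ki-67 protein that coats mitotic chromosomes, was level at 312 CPM in KI and 319 CPM in WT (-0.03, -0.07 to 0.01) in the plain sums. Its ratio was -0.23 with cells thinned first and 0.27 at matched totals. Top2a, the topoisomerase that untangles sister chromatids, stood at 260 CPM in KI and 300.4 CPM in WT (-0.21, -0.25 to -0.17), and at a ratio of 0.065 at matched totals.

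In the plain sums every member's ratio was lower at the low than at the high erythroid stage, and per thinned cell this held for 35 of 37, all but Ccnb1 and Bub1b. At the low stage 36 members were lower and 1 higher in KI, with a median ratio of -0.45. There 31 intervals lay below 0 and 1 above, where 12.9% of all genes lay below and 18.7% above. Past 1.5-fold lower were 7 members, Plk1, Aurka, Aurkb, Kif2c, Nusap1, Ckap2 and Kif20a, where 4.3% of all genes were. Aurkb stood at 36.1 CPM in KI and 63.6 CPM in WT low-stage cells (-0.82, -1.04 to -0.60). At the middle stage 30 members were lower with a median of -0.20, with 17 intervals below 0 and 1 above (13.5% and 17.8% of all genes). At the high stage 25 members were lower with a median of -0.08, with 17 intervals below 0 and 8 above (16.9% and 26.1% of all genes). In the plain sums 11 members were lower at the low and higher at the high stage. Of these Incenp, Knl1, Cenpe, Cenpf, Kif20b and Ube2c crossed per thinned cell too, while Mki67, Bub1b, Hmmr, Ckap2l and Anln did not. Ube2c stood at 148 CPM in KI and 205 CPM in WT at the low stage (-0.47, -0.59 to -0.36), and at 294 CPM in KI and 274 CPM in WT at the high stage (0.10, 0.04 to 0.16). Cenpf stood at 75.7 CPM in KI and 94.4 CPM in WT at the low stage, and at 123 CPM in KI and 114 CPM in WT at the high stage. By contrast 24 members were lower at all 3 stages, and 22 were per thinned cell.

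Within a library, members were higher in more mature cells. Per thinned cell, all 37 members in KI and 36 in WT had more UMIs at the high than at the low stage, with intervals above 0 for 35 members in KI and 33 in WT. Of all genes, 26.2% in KI and 26.3% in WT had such intervals. The median log2 ratio of high over low stage was 1.46 in KI and 1.02 in WT. It was larger in KI for 35 of the 37, which restates the count per thinned cell in the paragraph before and is no separate result.

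Within G2/M cells alone most members were level or slightly higher in KI erythroid cells. Each member was read in cells called from the other 36. Of the 37, 27 were higher and 10 lower in KI, with a median ratio of 0.08. The interval lay above 0 for 11 members and below 0 for none, where 11.6% of all genes lay above and 8.9% below. Kif23 stood at 74.4 UMIs per 1000 KI cells and 45.6 UMIs per 1000 WT cells (log2 ratio 0.71). Esco2 stood at 153 per 1000 KI and 95.8 per 1000 WT cells, Knl1 at 391 per 1000 KI and 291 per 1000 WT cells, and Bub1b at 127 per 1000 KI and 95.7 per 1000 WT cells. Aurka stood at 85.0 per 1000 KI and 105 per 1000 WT cells, a ratio of -0.31. The rest of the 11 were Mki67, Incenp, Cdca8, Cenpa, Cenpf, Tpx2 and Ube2c. The called cells held between 58.1% (Ckap2) and 87.8% (Hmmr) of a member's thinned UMIs in erythroid cells of both libraries. This share is a description of how closely each gene tracks the other 36.

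Some members stood higher in G2/M cells without much S-phase RNA than in those with it. The ratio of the 2 was 2.93 for Ube2c, 2.77 for Kif23 and 2.19 for Aurka over all thinned cells of both libraries, and it was above 1 for 36 of 37. Esco2, at 0.698, was the exception. Members known to peak in mitosis were set against members known to peak in G2, as a ratio of summed UMIs. In erythroid cells this ratio was 0.946 in KI and 0.916 in WT, and in megakaryocyte cells 0.636 in KI and 0.647 in WT. The balance between the 2 sets thus hardly differed between genotypes in these classes. It was 0.761 in KI and 0.809 in WT in monocyte cells, and 0.736 in KI and 0.849 in WT in neutrophil cells.

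One erythroid cluster held cells of both libraries and had a member profile of its own. Cluster 12, led by Smim1 and Isg20, held 68 KI and 86 WT cells. G2/M cells made up 70.0% (56.8 to 81.2) of its 60 KI cells with at least 2000 UMIs. In WT they made up 83.9% (72.3 to 92.0) of 62 such cells. Cluster 12 was set against the largest erythroid cluster of each library, cluster 2 in KI and cluster 4 in WT. This was done after its values were seen, so what follows is a description. Ube2c stood at 610.0 CPM in cluster 12 and 287 CPM in cluster 2 in KI, and at 537 CPM in cluster 12 and 266 CPM in cluster 4 in WT. Mki67 stood at 59.0 CPM in cluster 12 and 369 CPM in cluster 2 in KI, and at 124 CPM in cluster 12 and 352 CPM in cluster 4 in WT. The 2 genes thus lay on opposite sides in both libraries.

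In all, 7 members had intervals above 0 in both libraries, where 2.19% of all genes did. These were Cdk1, Plk1, Birc5, Cdca8, Cenpa, Nusap1 and Ube2c. Another 7, Mki67, Top2a, Knl1, Tpx2, Hmmr, Aspm and Anln, had intervals below 0 in both, where 7.31% of all genes did. The other 23 did neither, and none lay on opposite sides in the 2 libraries. Malat1, a non-coding RNA that stays in the nucleus, stood at 293 CPM in cluster 12 and 2412 CPM in cluster 2 in KI, and at 624 CPM in cluster 12 and 2626 CPM in cluster 4 in WT. Median totals in cluster 12 were 5709 UMIs in KI and 4272.5 UMIs in WT, far under those of the largest clusters. Their part in the profile was not tested.

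**Figure D4:**
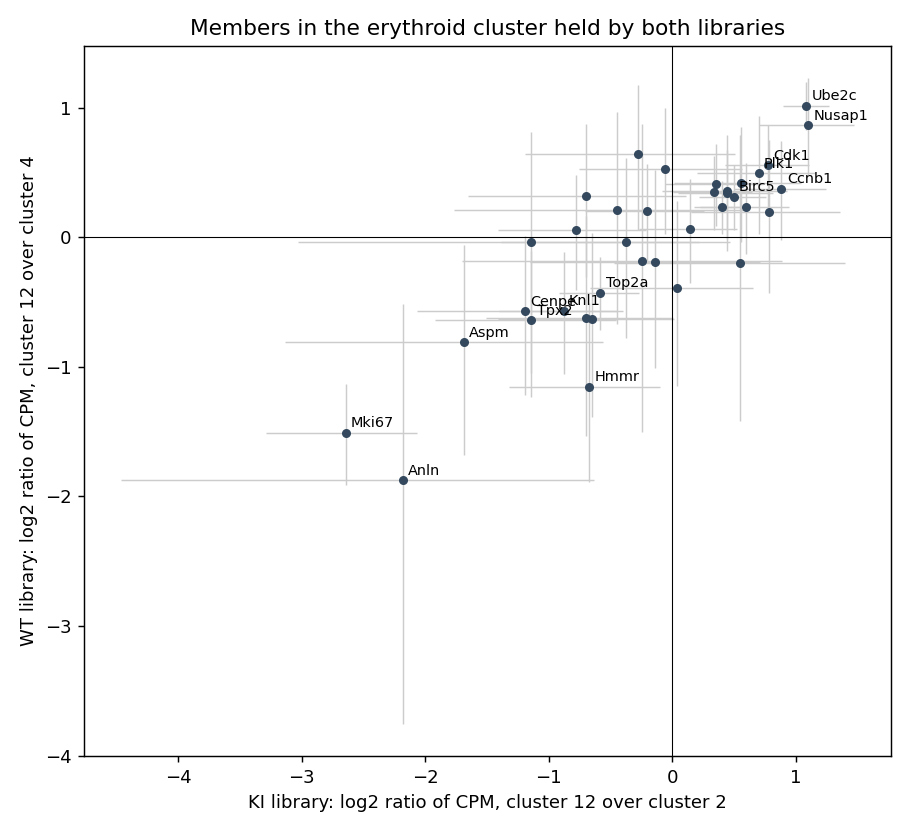
Log2 ratio of CPM for each member, cluster 12 over the largest erythroid cluster of the same library, in KI (x axis) and WT (y axis). Points stand for members, and Ube2c lies toward the upper right (1.09 in KI and 1.02 in WT) and Mki67 toward the lower left (-2.64 in KI and -1.51 in WT).

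**Figure D5:**
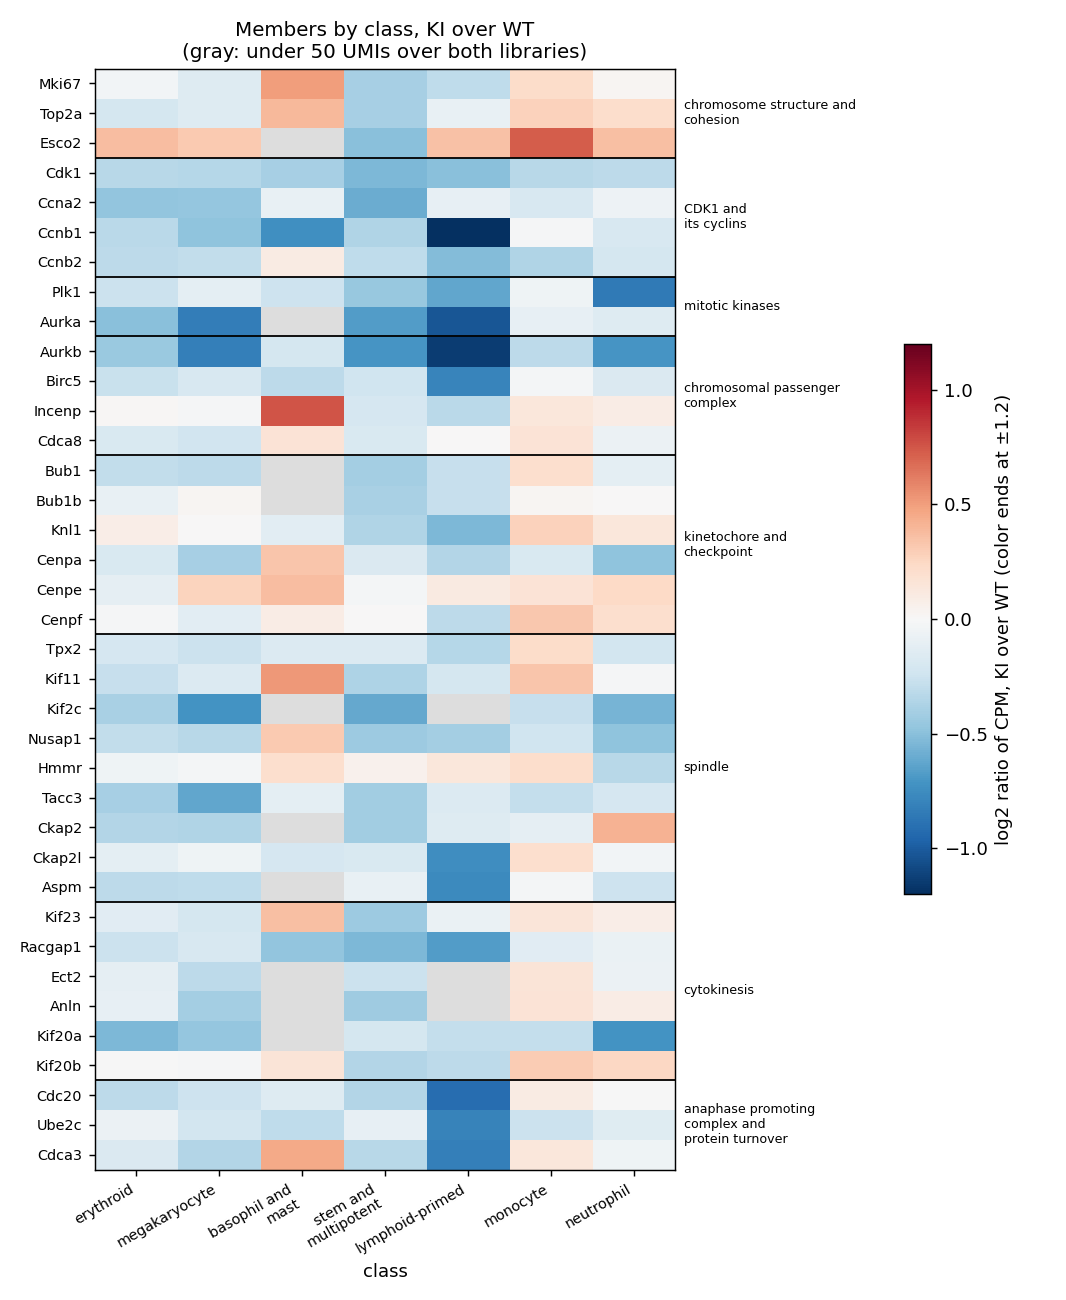
Log2 ratio of CPM, KI over WT, for the 37 members (rows, by role) in 7 classes (columns), with gray where a member had fewer than 50 UMIs over both libraries. Blue to red runs from lower to higher in KI and ends at 1.2 on either side. Stem, lymphoid-primed and megakaryocyte columns are mostly below 0, with medians of -0.36, -0.33 and -0.25, and the monocyte column is mixed, with a median of 0.10.

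Outside the erythroid lineage the medians were lowest in stem and lymphoid-primed cells in the plain sums. The order depended on the setting, with neutrophil cells lowest (-0.63) where classes were given cell by cell, and megakaryocyte cells (-0.41) below lymphoid-primed cells (-0.25) where doublets were kept. In stem and multipotent cells 35 of 37 members were lower, with a median ratio of -0.36, against 0.02 over all genes. There 20 intervals lay below 0 and none above, where 10.1% of all genes lay below and 11.9% above. Past 1.5-fold lower were 4 members, where 4.34% of all genes were. These were Aurkb (35.4 CPM in KI and 57.7 CPM in WT), Aurka (15.3 CPM in KI and 24.3 CPM in WT), Kif2c (13.3 CPM in KI and 20.3 CPM in WT) and Ccna2 (35.6 CPM in KI and 53.9 CPM in WT). Both Aurora kinases and cyclin A2 thus stood out in stem cells as in erythroid cells. Cdk1 stood at 59.5 CPM in KI and 86.5 CPM in WT stem cells (-0.54).

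In lymphoid-primed cells 30 of 34 measured members were lower, with a median of -0.33. There 17 intervals lay below 0 and none above, where 7.01% of all genes lay below and 8.91% above. Past 1.5-fold lower were 11 members, where 5.92% of all genes were. Of those whose higher library had 100 UMIs or more, Aurkb stood at 29.9 CPM in KI and 65.7 CPM in WT (-1.14) and Cdc20 at 51.8 CPM in KI and 97.4 CPM in WT (-0.91). Ube2c stood at 129 CPM in KI and 225 CPM in WT, Birc5 at 79.9 CPM in KI and 138 CPM in WT, and Cdca3 at 36.9 CPM in KI and 65.1 CPM in WT. All 3 genes of the anaphase promoting complex group were lower by more than 1.5-fold here. Ccnb1, with 22 KI and 99 WT UMIs, stood at 19.3 CPM in KI and 59.2 CPM in WT (-1.61). The others past 1.5-fold, Plk1, Aurka, Ckap2l, Aspm and Racgap1, had between 55 and 96 UMIs in WT and fewer in KI.

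In megakaryocyte cells 33 of 37 were lower, with a median of -0.25. There 16 intervals lay below 0 and none above, where 8.16% of all genes lay below and 10.6% above. Past 1.5-fold lower were 4 members, where 4.68% of all genes were. Aurka stood at 23.4 CPM in KI and 41.6 CPM in WT (-0.83), Aurkb at 43.5 CPM in KI and 76.9 CPM in WT (-0.82) and Tacc3 at 42.3 CPM in KI and 65.1 CPM in WT (-0.62). The fourth, Kif2c, rested on 43 KI and 79 WT UMIs.

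In the plain sums, monocyte cells and basophil and mast cells showed no common direction. In monocyte cells 20 members were higher and 17 lower (median ratio 0.10), with 9 intervals above 0 and 7 below (17.1% and 9.84% of all genes). Esco2 was past 1.5-fold higher at 40.3 CPM in KI and 24.3 CPM in WT (0.73), where 4.43% of all genes were. Top2a stood at 354 CPM in KI and 292 CPM in WT and Cenpf at 102 CPM in KI and 81.5 CPM in WT. In the other direction Ccnb2 stood at 77.7 CPM in KI and 99.7 CPM in WT, Cdk1 at 105 CPM in KI and 132 CPM in WT, and Ube2c at 207.8 CPM in KI and 249.1 CPM in WT. Cdk1 and Ccnb2 were thus lower in KI monocyte cells, Ccna2 (-0.19) and Ccnb1 (-0.018) had intervals that included 0, and the 3 chromosome genes were higher. RNA of the 13 erythroid markers was lower there too, at 72.7 CPM in KI and 298 CPM in WT (12 of 13 detected in each), and its part in these ratios was not tested. At matched totals 23 of 33 measured members were higher and 10 lower in KI monocyte cells, without intervals. The median was 0.22, beside 0.049 over all genes, and the smallest range of totals held 21 KI cells. Ccnb1 stood at 0.56 there, and Cdk1 at -0.28, Ccna2 at -0.50 and Ccnb2 at -0.57.

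In neutrophil cells 25 members were lower, with a median of -0.07 against 0.10 over all genes, and 5 intervals lay below 0 and 1 above (7.46% and 16.4% of all genes). The median was below 0 in all 10 settings, at -0.27 with cells thinned first and -0.63 with classes given cell by cell. Past 1.5-fold lower were 3 members, where 4.82% of all genes were, which were Plk1 (17.7 CPM in KI and 32.0 CPM in WT), Aurkb (38.9 CPM in KI and 63.5 CPM in WT) and Kif20a, on 16 KI and 99 WT UMIs. Cenpa stood at 92.0 CPM in KI and 129 CPM in WT, and Top2a at 229 CPM in KI and 197 CPM in WT. In basophil and mast cells 27 members were measured, 14 higher and 13 lower. There 3 intervals lay above 0 and 1 below (10.2% and 8.1% of all genes), and 1 member in each direction was past 1.5-fold (6.88% of all genes higher and 6.69% lower). These were Incenp at 93.2 CPM in KI and 55.4 CPM in WT, and Ccnb1 at 29.5 CPM in KI and 49.2 CPM in WT.

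Some members had ratios below 0 in every class, not always with intervals below 0. The classes share the same 2 libraries, so they are no replicates of each other. Lower in KI in every class where they were measured were 13 members, Cdk1, Ccna2, Ccnb1, Plk1, Aurka, Aurkb, Birc5, Kif2c, Tacc3, Aspm, Racgap1, Kif20a and Ube2c, and 9 of them were measured in all 7. At matched totals Cdk1, Ccnb1, Plk1, Birc5 and Ube2c were above 0 in erythroid cells and the others below. In monocyte cells at matched totals Ccnb1 (0.56), Birc5 (0.27), Aurka (0.26), Plk1 (0.18) and Ube2c (0.048) were above 0. Cdk1, Ccna2, Aurkb, Kif2c, Tacc3 and Racgap1 were below 0 there, and Aspm and Kif20a had under 50 UMIs. Cdk1 ran from -0.54 to -0.31 with 6 intervals below 0, and Aurkb from -1.14 to -0.21 with 6 below. None was higher in every class. Intervals above 0 in at least 2 classes were found for Mki67, Top2a, Esco2 and Knl1. Esco2 was higher in 5 of 6 classes and stood at -0.50 in stem cells.

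Most genes of the other G2 and S-phase lists were lower in KI erythroid cells too. Of 55 other G2 and mitosis genes, 44 were lower and 11 higher, with a median of -0.17, and 35 intervals lay below 0 and 5 above, where 21% of all genes lay below and 33.3% above. Past 1.5-fold were 3 higher and 6 lower, where 9.71% of all genes were higher and 4.32% lower. Among the 9 were Sgo1, the cohesin guardian, at 33.3 CPM in KI and 65.7 CPM in WT, and Cdc25b, a phosphatase that activates CDK1, at 10.5 CPM in KI and 5.75 CPM in WT. Cks2, a CDK-binding protein, stood at 482 CPM in KI and 531 CPM in WT, and the condensin gene Smc4 at 247 CPM in KI and 237 CPM in WT. Of 44 S-phase genes, 32 were lower and 12 higher, with a median of -0.14, where 58.7% of all genes were higher. Ccne1, cyclin E1 of the G1 to S transition, stood at 48.5 CPM in KI and 95.5 CPM in WT, while the helicase gene Mcm3 was level at 201 CPM in KI and 203 CPM in WT.

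The regulators of these genes showed no common direction. Of all genes measured in erythroid cells, 58.7% were higher in KI, with a median ratio of 0.05. Of 17 genes that control G2/M transcription, 9 were higher and 8 lower (median ratio 0.01). E2f4, of the DREAM complex, stood at 148 CPM in KI and 168 CPM in WT, Tfdp1, its partner, at 104 CPM in KI and 132 CPM in WT (-0.35), and Nfyb, a subunit of NF-Y, at 62.8 CPM in KI and 62.5 CPM in WT. Of 17 genes of the anaphase promoting complex and its regulators, 12 were lower and 5 higher (median ratio -0.08). Ube2s stood at 333.7 CPM in KI and 391.7 CPM in WT, and Anapc5 at 192 CPM in KI and 180 CPM in WT. Of 12 G2 checkpoint genes, 7 were higher and 5 lower (median ratio 0.08), close to the share over all genes. Cdc25a, a phosphatase that activates cyclin-dependent kinases, stood at 64.1 CPM in KI and 55.5 CPM in WT, and Wee1, the kinase that holds CDK1 off, at 32.9 CPM in KI and 37.9 CPM in WT. Ccng1, a p53 target, stood at 40.1 CPM in KI and 33.2 CPM in WT. None of the 12 was past 1.5-fold, where 9.71% of all genes were higher and 4.32% lower.

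RNA of other lineages in the erythroid class also differed between the libraries. Of 9 markers of basophil and mast cells, 7 were detected in KI and 8 in WT, and they summed to 69.6 CPM in KI and 33.4 CPM in WT, the 6 of early myeloid cells to 463 CPM in KI and 657 CPM in WT, and the 10 of stem cells to 111 CPM in KI and 92.7 CPM in WT. The 5 macrophage markers, of a cell that can stick to erythroid cells, summed to 1.62 CPM in KI and 0.873 CPM in WT. Their part in the members' ratios was not tested.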

How the data were processed

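The deposited values are unnormalised UMI counts for each gene in each cell barcode, made with Cell Ranger 3.1.0, per the file headers. The build was mm10, per the submitters' processing notes. How the authors chose barcodes is not given in the sources used here, and the smallest barcode total was 500 UMIs in each library. The labels name a v2 reagent kit. The files held 6640 KI and 7471 WT barcodes with 48005467 and 70543211 UMIs.

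Cells needed 500 genes, 1000 UMIs and no more than 10% mitochondrial UMIs, and 11.4% of KI and 23.0% of WT barcodes were over the mitochondrial limit. Scrublet in scanpy 1.11.5 called 0.0692% of KI cells doublets, which is under 0.5%, so the top 5% of KI scores (289 cells) were removed. In WT its own call (145 cells) was removed. Both libraries were clustered together with leidenalg 0.10.2 (2000 variable genes without the members, cell-cycle lists and sex-linked, ribosomal and mitochondrial genes, 30 principal components, 15 neighbours, resolution 1). No batch correction was made. A cluster took the class with the largest share of its markers above the middle of their range over clusters. This naming rule replaced another after the clusters had been seen. Classes needed 50 cells in each library and genes 50 UMIs over both.

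Cells were thinned to 2000 UMIs by drawing UMIs without replacement (numpy 2.4.6). Share intervals are exact Clopper-Pearson, intervals of ratios of shares use the log method, and intervals of CPM ratios are exact conditional binomial (scipy 1.17.1). PCR-amplified, background and doublet RNA is not covered by them. Scripts were tested on simulated data. The members and lists were chosen with earlier results of these data known. Named members were at least 1 of each role, the 3 members in each direction with intervals farthest from 0 in a class, and those past 1.5-fold on 100 UMIs in 1 library, of which the text gives most. Settings tried were a stricter filter, doublets kept or removed alike, other resolutions, classes given cell by cell, other limits for a G2/M cell, other thinning, other stages, TMM scaling and, added after seeing the data, matched totals for shares and levels, leaving out cluster 15 and naming every cluster by its own markers.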

Additional observations from a re-analysis of the deposited data

Results flagged for a closer look

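In 7 cases a member's ratio lay on opposite sides of 0, KI over WT, in erythroid cells and in another class, with both counting intervals off 0. The differences between classes were not tested, and 1 library of each genotype underlies all of them.

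Top2a stood at a log2 ratio of 0.39 in basophil and mast cells, 0.28 in monocyte cells and 0.21 in neutrophil cells, beside -0.21 in erythroid cells. Another 3 members were higher in KI monocyte and lower in KI erythroid cells. These were Kif11 (0.33 in monocyte and -0.27 in erythroid cells), Tpx2 (0.22 in monocyte and -0.20 in erythroid cells) and Cdca8 (0.16 in monocyte and -0.18 in erythroid cells). With thinned cells and KI weighted to the WT mix of total UMIs, the erythroid ratios were 0.065 for Top2a, -0.032 for Kif11, 0.31 for Tpx2 and 0.15 for Cdca8. The monocyte ratios weighted in the same way were 0.45 for Top2a, -0.0061 for Kif11, 0.42 for Tpx2 and 0.035 for Cdca8. Erythroid and monocyte ratios were then on the same side for each of these genes, though both Kif11 ratios were close to level. No intervals were worked out for this setting, and the smallest monocyte range of totals held 21 KI cells. Esco2 stood at -0.50 in stem and multipotent cells, beside 0.37 in erythroid cells.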

How the results depend on the processing

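All values here are log2 ratios, KI over WT. The erythroid G2/M share ratio (-0.53) was below 0 in 14 of 15 settings and 0.035 with KI cells weighted to the WT mix of total UMIs. It was -0.64 without thinning, -0.31 with classes given cell by cell, -0.29 with at least 10 member UMIs and -0.15 with cells thinned to 4000 UMIs. That setting left 1950 KI and 1957 WT cells and gave -0.018 in stem cells. Classes given cell by cell gave -0.71 in basophil and mast and -0.87 in neutrophil cells. By stage, weighting gave 0.13 at the low, 0.094 at the middle and -0.026 at the high stage, and 4000 UMIs gave 2.3e-05, -0.19 and -0.15 in that order. At least 10 UMIs gave -0.066 at the middle and 0.0025 at the high stage. The low stage stood at -1.15 under the stricter filter, -0.93 with the top 5% of doublet scores removed in both libraries, -0.30 with stages from the immature list and -1.12 with clusters as stages. The middle stage stood at -0.12 and -1.22 in the last 2 settings. The high stage stood at -0.13 under the stricter filter, -0.16 with doublets kept and -0.15 with the top 5% removed. In these 3 settings a KI erythroid cluster went unnamed.

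The erythroid list median (-0.21) was below 0 in 12 of 13 settings. It was -0.36 with cells thinned before summing, which gave -0.27 in neutrophil cells. With thinned cells and KI weighted to the WT mix of totals it was 0.073, and 0.22 in monocyte cells. That weighting also turned the erythroid ratios of Top2a (0.065), Cdk1 (0.060), Ccnb1 (0.25), Plk1 (0.12), Birc5 (0.073), Tpx2 (0.31) and Ube2c (0.32). Classes given cell by cell gave -0.39 in megakaryocyte, -0.42 in basophil and mast, -0.55 in stem, -0.62 in lymphoid-primed and -0.63 in neutrophil cells. Doublets kept gave -0.41 in megakaryocyte and -0.25 in lymphoid-primed cells, also with every cluster named by its own markers. Stem cells stood at -0.21 under the stricter filter and -0.69 at resolution 1.6, and monocyte cells at 0.18 with the top 5% removed. Ube2c stood at 0.019 with classes given cell by cell and Knl1 at -0.074 with cells thinned first. The cause of these shifts was not tested. Stem and lymphoid-primed cells had no value at resolution 0.6, nor neutrophil cells under the stricter filter. No paired analysis was possible because each genotype had 1 library. Depth limits the small classes most, where the intervals allow large differences.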

Other observations

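A small cluster of the KI library stood apart from the other erythroid cells. Cluster 15, led by globin genes, held 19 KI cells and 1 WT cell, with 77.8% of 18 KI cells called G2/M. The members summed to 10087 CPM in these KI cells and Mki67 stood at 1999 CPM. With so few cells in WT no comparison was made.

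Barcodes that were removed held G2/M cells as well. Of barcodes removed as doublets, 39.0% of 287 in KI and 56.6% of 143 in WT were G2/M cells. Of those over the mitochondrial limit with at least 2000 UMIs, 35.5% of 107 in KI and 50.7% of 294 in WT were.

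Over 20 profiles of a cluster in a library, the genes outside the member list whose CPM followed the summed members most closely among 8735 genes compared were Cenpn (Pearson r 0.94), Cenph (0.92), Nup37 (0.92), Hmgb1 (0.92) and Cenpp (0.91). The profiles share 2 libraries and differ in depth, so this is a description. Among members, Ccna2 (0.96), Cdc20 (0.95) and Kif20a (0.95) followed the sum of the other 36 most closely. Kif23 (0.30), Anln (0.40) and Mki67 (0.40) followed it least.

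The members lie on 16 chromosomes, and chromosome 2 holds 8 of them. Among these are Bub1b, Knl1, Nusap1 and Ube2c, whose erythroid ratios were -0.09, 0.08, -0.29 and -0.07.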
